A study of Homo sapiens with 8 samples.

Results

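The SMAD family and 2 corepressors that act on it, TGIF1 and SKIL, were followed in IMR90 fibroblasts that had received medium from cells undergoing oncogene-induced senescence. The members were the rows of the count table with the symbols SMAD1, SMAD2, SMAD3, SMAD4, SMAD5, SMAD6, SMAD7, SMAD9, TGIF1 and SKIL. All 10 were found among the 27696 genes of the table, and all 10 passed the filter on low counts that left 13798 genes for testing.

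IMR90 is a strain of primary human lung fibroblasts. The conditioning cells were IMR90 ER:RAS fibroblasts, in which 4-hydroxytamoxifen (4-OHT) activates a fusion of oncogenic RAS with the estrogen receptor. Medium was taken from them on day 0, 4, 7 or 10 of 4-OHT, and unmodified IMR90 recipients were kept in it for 3 days before poly(A) RNA was sequenced. A group is named by the day its medium was taken (D0, D4, D7, D10), and D0 is the control. Each of the 4 groups has 2 libraries, 1 from each of 2 independent experiments, so the 8 libraries come from a single fibroblast strain. The replicate number of a library was taken as the number of its experiment, which the labels do not state. Total counts were between 11708193 and 13395912.

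SMAD proteins carry the signals of TGF-β and of the bone morphogenetic proteins (BMPs) from the receptors at the membrane to the nucleus. SMAD1, SMAD5 and SMAD9 are phosphorylated by BMP-type receptors, SMAD2 and SMAD3 by TGF-β and activin receptors, and both kinds join the common partner SMAD4 to bind DNA. SMAD6 and SMAD7 are inhibitory SMADs that block receptors and receptor-regulated SMADs and are themselves induced by the pathway, while TGIF1 and SKIL (SnoN) recruit corepressors to SMAD complexes. In fibroblasts, TGF-β acting through SMAD3 is a main driver of collagen and α-smooth muscle actin (ACTA2) expression.

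The DNA before a start site is shown for SMAD1, SMAD6, SMAD7 and TGIF1. These are the 4 members whose D10 libraries lay outside the range of the D0 libraries, as 31.0% of all tested genes did. SMAD proteins bind short motifs that can be read from this DNA. The sequences are the 250 bases upstream of a RefSeq start site on GRCh38.p14, written 5′ to 3′ on the gene's strand, in lower case with motif matches in capitals. Motifs were searched on both strands. The first was GTCTAGAC, the palindrome to which purified SMAD3 and SMAD4 bind. The second was the SMAD binding core CAGAC and its complement, which share letters with the palindrome and can overlap it. The third was GGCGCC, a GC-rich motif bound by BMP-type SMADs. The last was the AP-1 site TGACTCA, since AP-1 factors act beside SMAD3 at many genes. Each gene is represented by the start site whose window held the most matches, among windows with at most 30 exon bases of the gene, so the number of matches is a description of a chosen window.
SMAD1, chr4:145482084-145482333, plus strand: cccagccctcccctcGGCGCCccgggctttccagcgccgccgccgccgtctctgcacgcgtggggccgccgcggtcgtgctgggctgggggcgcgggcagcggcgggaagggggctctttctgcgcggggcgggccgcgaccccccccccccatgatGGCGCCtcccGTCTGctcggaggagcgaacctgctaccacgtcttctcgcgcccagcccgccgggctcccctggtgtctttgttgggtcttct
SMAD6, chr15:66701986-66702235, plus strand: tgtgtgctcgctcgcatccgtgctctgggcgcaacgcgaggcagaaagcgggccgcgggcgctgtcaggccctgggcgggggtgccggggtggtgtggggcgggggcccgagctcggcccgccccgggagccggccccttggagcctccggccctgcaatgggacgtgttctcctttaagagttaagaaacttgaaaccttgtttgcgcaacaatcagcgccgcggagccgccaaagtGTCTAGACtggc
SMAD7, chr18:48949334-48949583, minus strand: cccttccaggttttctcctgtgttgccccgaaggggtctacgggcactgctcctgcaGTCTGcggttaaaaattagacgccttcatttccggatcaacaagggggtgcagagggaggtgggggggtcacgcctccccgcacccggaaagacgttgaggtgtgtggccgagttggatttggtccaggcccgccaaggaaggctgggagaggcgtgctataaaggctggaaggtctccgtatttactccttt
TGIF1, chr18:3448181-3448430, plus strand: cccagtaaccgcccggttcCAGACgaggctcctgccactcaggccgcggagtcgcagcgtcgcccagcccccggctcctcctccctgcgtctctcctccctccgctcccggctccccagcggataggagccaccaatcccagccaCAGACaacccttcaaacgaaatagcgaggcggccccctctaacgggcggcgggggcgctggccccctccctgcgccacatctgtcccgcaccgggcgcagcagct
The SMAD6 window holds the whole palindrome GTCTAGAC, starting 12 bases before the start site. Of 35116 windows of the same length, 0.182% hold it. The SMAD1 window holds 2 copies of GGCGCC and 1 of the core, the SMAD7 window 1 core and the TGIF1 window 2 cores. These shorter motifs are common, since 38.0% of all windows hold the core and 16.4% hold GGCGCC. The AP-1 site, found in 4.20% of all windows, has no match in these 4 windows. They were chosen from 5, 1, 3 and 7 windows of SMAD1, SMAD6, SMAD7 and TGIF1. Another SMAD1 window, left out for its 112 exon bases, holds an AP-1 site starting 45 bases before its start site. A SMAD7 window left out for its 250 exon bases holds 2 cores, more than the printed SMAD7 window. Further left-out windows hold GGCGCC for SMAD1 and the core for TGIF1.

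Expression is given as CPM, counts scaled to library size with edgeR's TMM factors, and log2 fold changes come from edgeR's quasi-likelihood fit of all 8 libraries. Only the summed CPM of cell type and proliferation markers was scaled by total counts, without the TMM factors. At an adjusted p under 0.05 (Benjamini-Hochberg over all 13798 genes), that test called 0 of the 10 members on any of the 3 days. The background was low as well, with 0% of all tested genes called at D4, 0% at D7 and 0.290% at D10. At an unadjusted p under 0.05 it gave 0 members at D4 (2.96% of all genes), 1 at D7 (4.34% of all genes) and 4 at D10 (7.94% of all genes). The 4 members at D10 were SMAD1, TGIF1 and SMAD7, with positive fold changes, and SMAD6, with a negative fold change. With the experiment as a replicate block the same test called 0 members at D4 (0.275% of all genes), SMAD1 at D7 (1.25% of all genes) and SMAD1 and TGIF1 at D10 (4.99% of all genes). DESeq2 without a block called 0 members at D4 (0.287% of the genes it tested), 0 at D7 (0.785%) and SMAD1 alone at D10 (2.17%). DESeq2 with the block called 0 members at D4 (1.55%), SMAD1 at D7 (2.37%) and SMAD1 and TGIF1 at D10 (6.66%). Libraries lay wholly outside the D0 range for 2 members at D4, 3 at D7 and 4 at D10, while 22.3%, 28.9% and 31.0% of all genes did so. RNA was measured in bulk, so a change in the number of expressing cells and a change in RNA per cell cannot be told apart.

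1 library stood apart. In D10 of experiment 2 the summed CPM of 8 fibroblast markers (COL1A1, COL1A2, VIM, PDGFRA, PDGFRB, THY1, DCN and LUM) was 10388, against 29311 to 41168 in the other 7 libraries. Its mitochondrial share of counts was 1.22%, against 2.18% to 3.60%. COL1A1 and COL1A2 of the marker sum also stand in the list of TGF-β target genes below. How much each of the 8 markers adds to the low sum was not examined. All 8 fibroblast markers were detected, while the summed epithelial markers reached at most 0.830 CPM, the leukocyte markers at most 0.151 CPM and the 3 endothelial markers at most 3.66 CPM in any library. The 4 proliferation markers summed to 24.6 CPM in D10 of experiment 2 and to between 30.8 and 86.4 CPM in the other 7 libraries. Fold changes of members that rest on this library are given below with and without it.

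**Figure D1:**
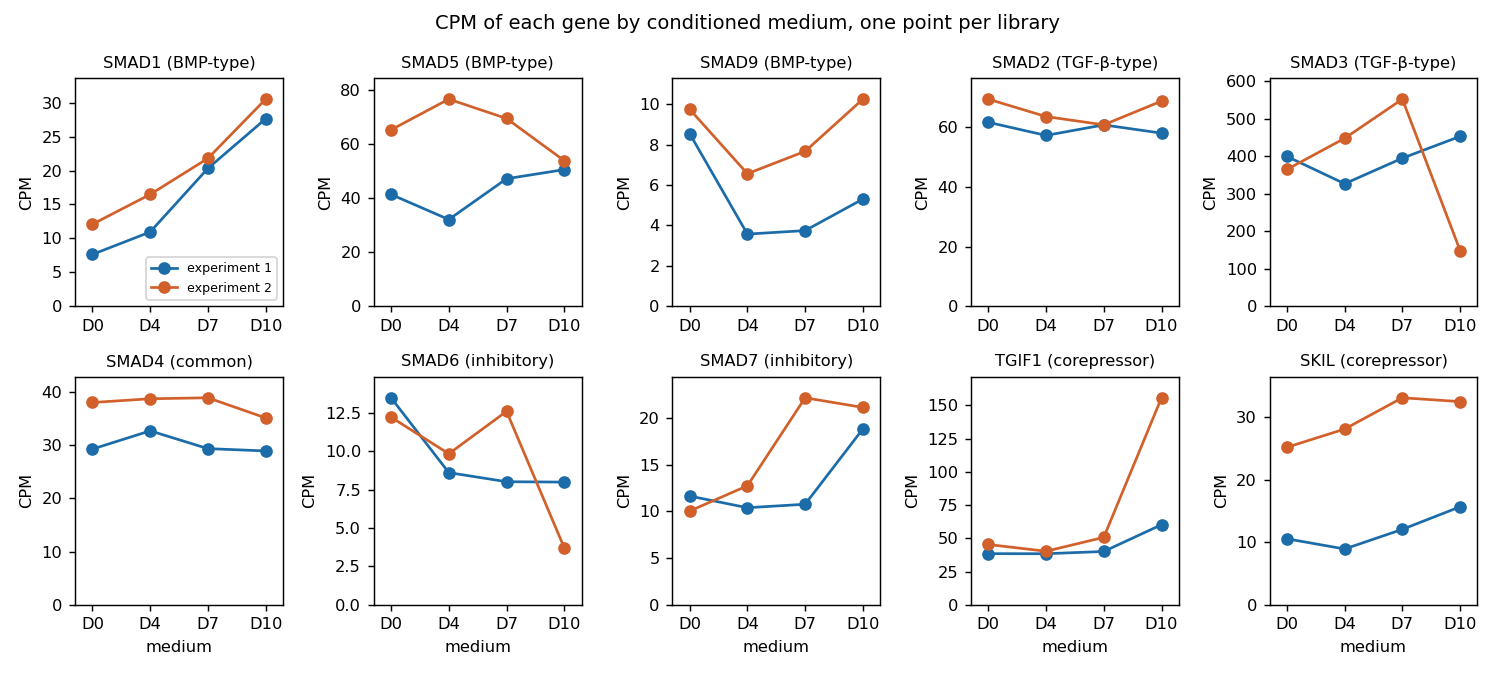
CPM of the 10 genes (vertical axes, from 0) against the medium (D0, D4, D7, D10), with 1 point per library and a line for each of the 2 experiments. SMAD1 is higher at each step in both experiments, while in D10 of experiment 2 SMAD3 is at its lowest and TGIF1 at its highest.

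Among the BMP-type SMADs, SMAD1 (chr4:145481194-145558079 on GRCh38, plus strand) was the member with an ordered profile. Its CPM in D0, D4, D7 and D10 was 7.63, 10.9, 20.3 and 27.6 in experiment 1 and 12.1, 16.5, 21.8 and 30.5 in experiment 2. Each step was higher than the one before in both experiments, which 1.33% of all tested genes also showed. None of the 10 members was lower at each step in both, as 1.45% of all genes were. All SMAD1 libraries of D7 and D10 lay above both of its D0 libraries. The counts behind these values ran from 91 to 387. Against D0, fitted log2 fold changes were 0.47 (SE 0.30) for D4 medium, 1.09 (SE 0.30) for D7 and 1.56 (SE 0.31) for D10, n = 2 libraries per group. At D10 this is a 2.94-fold higher level, with a 95% interval on the log2 scale of 0.85 to 2.26. The edgeR adjusted p was 1 for D4 medium, 0.607 for D7 and 0.0923 for D10. Under the replicate block it was 0.592, 0.0401 and 0.00370. DESeq2 gave 0.00171 at D10. SMAD1 was 3.62-fold its D0 level at D10 in experiment 1 and 2.53-fold in experiment 2, and leaving out any single library kept the log2 fold change between 1.27 and 1.92. For D7 medium that range was 0.80 to 1.46 and for D4 medium 0.15 to 0.84. In the test of any difference among the 4 groups the adjusted p was 0.283 without and 0.0120 with the block. That test called 0 members without the block (0.0870% of all genes), SMAD1 with it (3.33%), and both SMAD1 and TGIF1 in DESeq2 without (2.09%) and with the block (7.09%). Its unadjusted p was under 0.05 for SMAD1 and TGIF1 in edgeR without the block, as for 5.22% of all genes.

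SMAD5 (chr5:136132845-136188747, plus strand), which receives the same BMP signal, had CPM of 41.3, 32.0, 47.1 and 50.5 in experiment 1 and 65.2, 76.6, 69.4 and 53.8 in experiment 2. The experiments moved in opposite directions by D10, to 1.22-fold and 0.825-fold of D0, and the D0 and D10 libraries overlapped. Its fitted log2 fold change at D10 was -0.03 (95% interval -0.999 to 0.94, adjusted p = 0.998, edgeR).

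SMAD9 (chr13:36844831-36920765, minus strand), the third receptor-regulated SMAD of the BMP branch, had CPM of 8.55, 3.57, 3.74 and 5.30 in experiment 1. In experiment 2 its CPM was 9.75, 6.56, 7.67 and 10.3. Both D4 and both D7 libraries were below both D0 libraries, while at D10 experiment 2 was back at 1.05-fold of its D0. Fitted log2 fold changes were -0.85 (SE 0.49) for D4, -0.68 (SE 0.48) for D7 and -0.23 (SE 0.48) for D10, with edgeR adjusted p of 1, 1 and 0.998. With the block the edgeR adjusted p was 0.303, 0.318 and 0.602. The D4 fold change was -0.48 without D4 replicate 1 and -1.35 without D4 replicate 2. The D7 fold change was -0.25 without D7 replicate 1 and -1.29 without D7 replicate 2. The counts were between 46 and 134.

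Within libraries, SMAD1 counts became more numerous relative to SMAD5 counts from D0 to D10 in both experiments. SMAD1 had 0.185 counts per SMAD5 count in D0 of both experiments. At D10 the ratio was 0.547 in experiment 1 and 0.567 in experiment 2, which is 2.96-fold and 3.06-fold of D0. At D4 and D7 it was 0.341 and 0.431 in experiment 1 and 0.215 and 0.314 in experiment 2, so the experiments were alike at both ends of the course and apart between them. Per kb of annotated exon, SMAD1 made up 17.7% ± 0.767 (SD, n = 2) of the BMP-type total with D0 medium, 26.1% ± 5.78 with D4, 32.4% ± 5.55 with D7 and 40.3% ± 1.24 with D10 medium. SMAD5 went from 64.3% ± 2.61 to 48.5% ± 2.75 over the same course. With the median length of the coding transcripts, the SMAD1 share was 34.7% at D0 and 62.3% at D10, so the share depends on the length taken while its order over the media does not. These ratios are descriptions without a test.

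**Figure D2:**
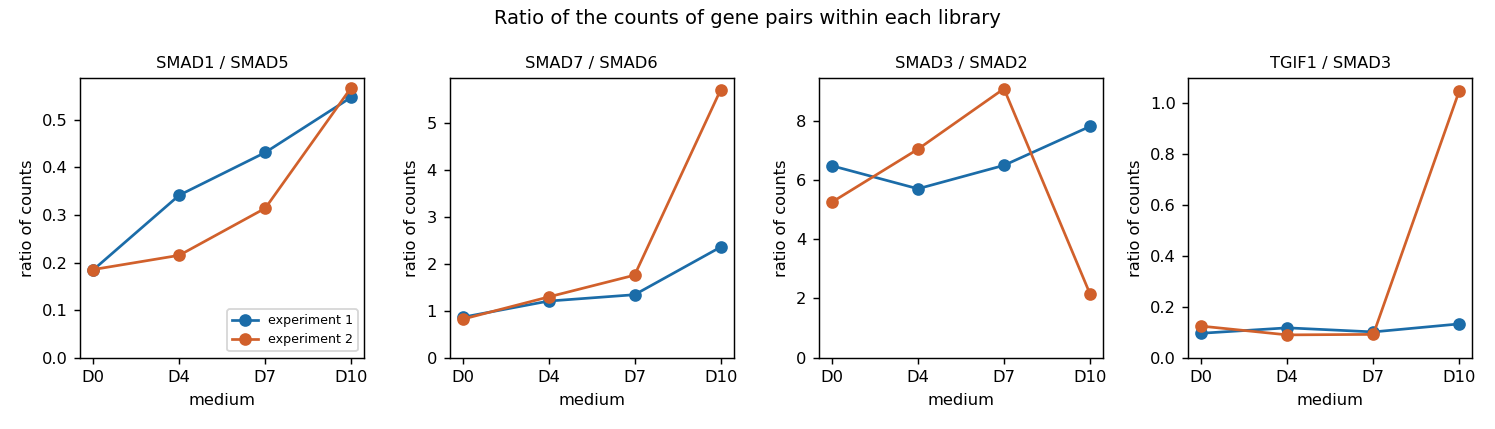
Ratio of the counts of 2 genes within each library (vertical axes, from 0) against the medium, with 1 line per experiment. SMAD1 over SMAD5 starts at 0.185 and ends at 0.547 and 0.567, SMAD7 over SMAD6 is higher at each step in both experiments, and the SMAD3 over SMAD2 and TGIF1 over SMAD3 ratios part in D10 of experiment 2.

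Among the TGF-β-type SMADs, SMAD3 (chr15:67063763-67195195, plus strand) had the most counts of the 10 members. Its CPM was 399, 326, 395 and 453 in experiment 1 and 364, 447, 552 and 148 in experiment 2. The 7 other libraries held 4206 to 7268 counts and D10 of experiment 2 held 1881. SMAD3 was therefore 1.13-fold of D0 at D10 in experiment 1 and 0.407-fold in experiment 2. The fitted difference at D10 was -0.35 on the log2 scale (SE 0.48, adjusted p = 0.998, edgeR). It was 0.25 once D10 replicate 2 was left out and -1.35 with D10 replicate 1 left out. The low library is the one with the low fibroblast marker sum of 10388 CPM and the low mitochondrial share, and their part in the SMAD3 value was not tested.

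SMAD2 (chr18:47808957-47931146, minus strand) had CPM of 61.7, 57.3, 60.8 and 58.0 in experiment 1 and 69.4, 63.6, 60.8 and 68.8 in experiment 2. All values stayed within 0.876-fold and 0.990-fold of D0 of the same experiment, D10 of experiment 2 included. Its log2 fold change was -0.12 for D4 medium, -0.11 for D7 and -0.05 for D10, where the 95% interval ran from -0.51 to 0.41 (adjusted p = 0.998, edgeR). A decrease as large as -0.51 or an increase as large as 0.41 on the log2 scale therefore lies within the interval. The number of SMAD3 counts per SMAD2 count was 6.47, 5.70, 6.49 and 7.80 in experiment 1 and 5.25, 7.04, 9.07 and 2.16 in experiment 2.

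SMAD4 (chr18:51028394-51085045, plus strand), the partner shared by both branches, was among the steadiest members. Its CPM was 29.2, 32.7, 29.3 and 28.9 in experiment 1 and 38.0, 38.7, 38.9 and 35.1 in experiment 2. It was higher in experiment 2 in all 4 groups, and within each experiment it stayed between 0.924-fold and 1.12-fold of D0. Its log2 fold change at D10 was -0.07 (95% interval -0.65 to 0.50, adjusted p = 0.998, edgeR).

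The inhibitory SMADs had fold changes of opposite sign. SMAD7 (chr18:48919853-48952052, minus strand), which recruits ubiquitin ligases to the TGF-β receptor, had CPM of 11.6, 10.4, 10.8 and 18.8 in experiment 1. In experiment 2 its CPM was 10.0, 12.7, 22.2 and 21.1. Both D10 libraries were above both D0 libraries, but the higher level was reached at D7 in experiment 2 and at D10 in experiment 1. At D10 the log2 fold change was 0.88 (SE 0.35), with an adjusted p of 0.537 from edgeR and 0.127 with the block.

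SMAD6 (chr15:66702228-66782848, plus strand), which acts mainly on the BMP branch, had CPM of 13.5, 8.61, 8.02 and 8.0 in experiment 1. In experiment 2 its CPM was 12.2, 9.84, 12.6 and 3.71. Both D4 libraries and both D10 libraries were below both D0 libraries, while D7 of experiment 2 was level with D0. The lowest value rests on 47 counts, with an exact 95% Poisson interval of 34.5 to 62.5 that covers counting error only. At D10 the fitted log2 fold change was -1.13 (SE 0.40), with an adjusted p of 0.435 from edgeR and 0.126 with the block. Without D10 replicate 2, the library with the low marker sum, it was -0.68, and without D10 replicate 1 it was -1.77.

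Within libraries, SMAD7 counts relative to SMAD6 counts were higher at each step in both experiments. The number of SMAD7 counts per SMAD6 count was 0.863, 1.21, 1.34 and 2.36 in experiment 1 and 0.821, 1.30, 1.76 and 5.70 in experiment 2. The libraries thus went from fewer SMAD7 than SMAD6 counts at D0 to more at D4, D7 and D10. The D10 ratio was 2.73-fold of D0 in experiment 1 and 6.94-fold in experiment 2. These 2 genes were paired because both are inhibitory, and the ratio was not tested.

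**Figure D3:**
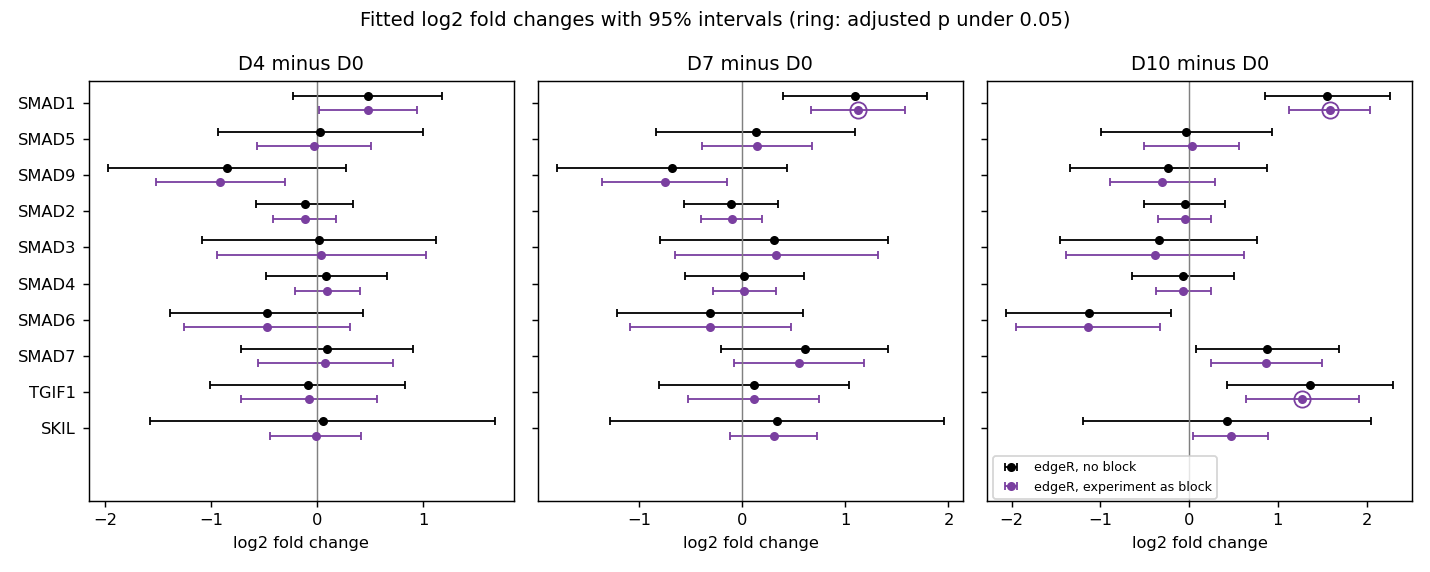
Log2 fold change against D0 (horizontal axes) of the 10 genes at D4, D7 and D10, with 95% intervals, from edgeR without (black) and with (purple) the experiment as a block. Rings mark an adjusted p under 0.05, which only the blocked fit gave, for SMAD1 at D7 and D10 and TGIF1 at D10.

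TGIF1 (chr18:3411608-3459978, plus strand), a homeodomain corepressor of SMAD2 and SMAD3, was higher at D10 and close to its D0 level before. Its CPM was 38.5, 38.4, 40.1 and 60.2 in experiment 1 and 45.3, 40.3, 50.7 and 155.7 in experiment 2. The D4 and D7 libraries stayed between 0.888-fold and 1.12-fold of D0, and D10 was 1.57-fold of D0 in experiment 1 and 3.43-fold in experiment 2. The log2 fold change at D10 was 1.37 (SE 0.40), a 2.58-fold higher level with a 95% interval of 0.43 to 2.30 on the log2 scale. The edgeR adjusted p was 0.285, and 0.0367 with the block. DESeq2 gave 0.0565 without a block. The size rests on D10 of experiment 2, the library with the low marker sum. On the log2 scale the fold change was 0.52 with D10 replicate 2 left out and 1.91 with D10 replicate 1 left out. The part of that library's other differences in the TGIF1 value was not tested. TGIF1 had 0.0900 to 0.133 counts per SMAD3 count in 7 libraries and 1.05 in D10 of experiment 2.

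SKIL (chr3:170357678-170396835, plus strand), a SKI-family corepressor that TGF-β signalling both degrades and induces, had CPM of 10.6, 8.92, 12.1 and 15.7 in experiment 1. In experiment 2 its CPM was 25.2, 28.1, 33.1 and 32.5. The experiments were further apart than the media, with experiment 2 on average 2.54-fold higher and above experiment 1 in all 4 groups. The D10 libraries were 1.48-fold and 1.29-fold of D0 of the same experiment. The log2 fold change at D10 was 0.43 (SE 0.70, adjusted p = 0.998, edgeR) and 0.47 (SE 0.19) with the block, with an adjusted p of 0.222.

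Set side by side by type, the median log2 fold change at D10 was -0.03 for the 3 BMP-type SMADs, -0.20 for the 2 TGF-β-type SMADs, -0.13 for the 2 inhibitory SMADs and 0.90 for the 2 corepressors. The median over all 13798 genes was 0.0037. The members of a type were spread, and the BMP-type values ran from -0.23 to 1.56 and the inhibitory ones from -1.13 to 0.88. Without D10 replicate 2 the TGF-β-type median was 0.035 and the inhibitory median 0.057, and without D10 replicate 1 they were -0.63 and -0.40. Without D0 replicate 1, D0 replicate 2 or D10 replicate 1 the BMP-type median was -0.32, 0.33 or 0.18. The corepressor median was 0.17 without D10 replicate 2, 1.39 without D10 replicate 1, 0.60 without D0 replicate 1 and 1.33 without D0 replicate 2.

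Compared per kb of annotated exon, SMAD3 had the highest level of the 10 at D0, at 41.9 ± 2.70 CPM per kb (SD, n = 2). SMAD5 followed at 5.89 ± 1.87 and TGIF1 at 5.10 ± 0.592, and the ranges of these 2 overlapped. The other 7 members lay at or below 2.56 CPM per kb at D0, in the order SMAD4, SKIL, SMAD7, SMAD2, SMAD1, SMAD9 and SMAD6. Among these, SMAD7 and SMAD2 were the only neighbours whose libraries did not overlap. By mean, the order at D10 was led by SMAD3 (33.0 ± 23.6), TGIF1 (13.1 ± 8.21), SMAD5 (5.77 ± 0.257) and SMAD1 (4.80 ± 0.338). By these means SMAD1 went from the 8th to the 4th level, and SMAD6 was the lowest on both days. At D10 SMAD3 and TGIF1 were at 49.7 and 7.33 in experiment 1. In experiment 2 they were at 16.3 and 18.9, so TGIF1 was above SMAD3 in that library. The order below SMAD3 depends on the length chosen. SMAD2 has 36366 annotated exon bases, and with its median coding transcript length of 10445 bases its D0 level was 6.28 instead of 1.80 CPM per kb.

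**Figure D4:**
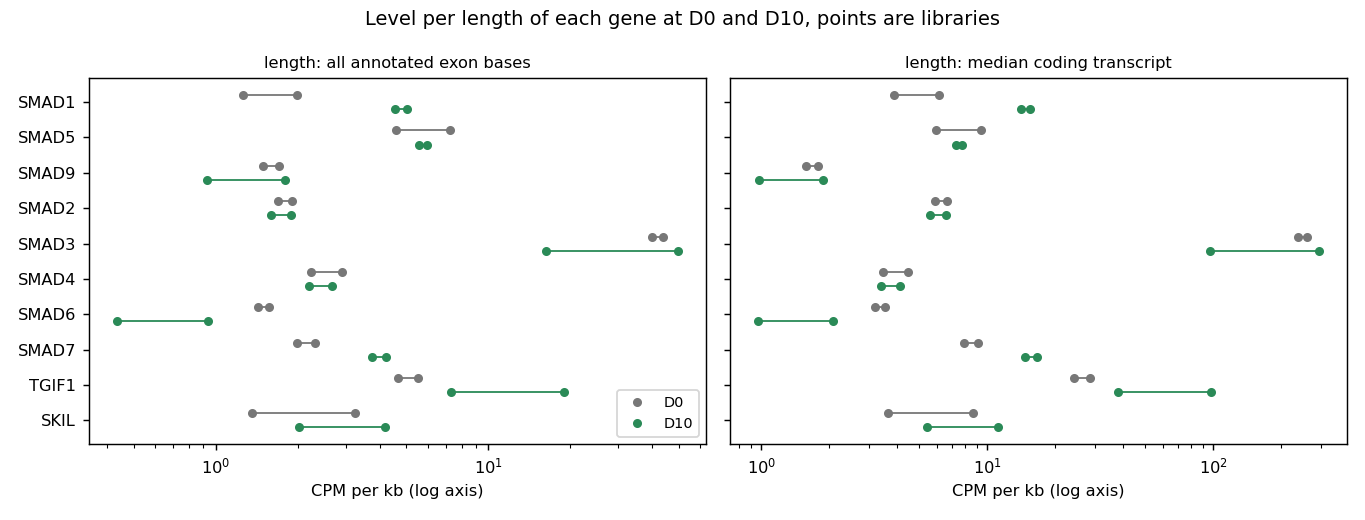
Level of each gene in CPM per kb (horizontal log axis) at D0 (grey) and D10 (green), with 1 point per library and a line joining the 2 libraries of a group, for 2 measures of gene length. SMAD3 has the highest mean under both lengths, but TGIF1 is above it in D10 of experiment 2. The D0 and D10 ranges are separate for SMAD1, SMAD6, SMAD7 and TGIF1, as for 31.0% of all tested genes.

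Some of these genes share sequence with others, and the strand setting of the counting is not given in the sources used here. SMAD1-AS1 covers 6.21% of the exon bases of SMAD1 from the opposite strand and had 0 to 2 counts in any library, and SMAD5-AS1 covers 6.75% of those of SMAD5 and had 0 to 10 counts. Of the 50-base words of SMAD4, 5.84% are found in AC091551.1, a gene on the same strand.

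The remaining genes of the pathway were taken from 7 lists. Among the ligands, BMP2 rose at D10 and was the only 1 of 8 tested to be called there by edgeR. Its CPM was 15.0, 28.4, 50.3 and 125.6 in experiment 1 and 10.0, 40.7, 86.3 and 307.5 in experiment 2, higher at each step in both. Its log2 fold change was 4.11 at D10 (adjusted p = 0.0379, edgeR). The call held without D10 replicate 1 (adjusted p = 0.00767) and was lost without any other single library, where the adjusted p ran from 0.0532 to 0.244 and the log2 fold change from 3.33 to 4.43. BMP2 is a ligand of the branch that SMAD1, SMAD5 and SMAD9 serve. The ligands did not move together. At D10, 5 of 8 had a positive log2 fold change. At an unadjusted p under 0.05 in edgeR there were 3 higher and 3 lower, while 7.94% of all genes passed in either direction. Their median was -0.42 at D4, -0.51 at D7 and 0.75 at D10, against 0.0088, -0.00041 and 0.0037 over all genes. The block called 1.25% of all genes at D7 and 4.99% at D10. On both days it called 1 ligand higher, BMP2, and 2 lower, TGFB2 and BMP4. The latter 2 are named after their values were seen.

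Among the 10 receptor-level and anchoring regulators, BAMBI, a decoy receptor without a kinase domain that dampens TGF-β and BMP signalling, fell and was the single gene called at D10. Its CPM was 63.9, 18.2, 14.6 and 14.9 in experiment 1 and 43.2, 14.8, 13.7 and 12.5 in experiment 2, so most of the difference was present at D4. Log2 fold changes were -1.70, -1.92 and -1.97 at D4, D7 and D10, with edgeR adjusted p of 0.723, 0.251 and 0.0402. The D10 call was lost without any 1 of the 8 libraries, with adjusted p between 0.0544 and 0.215 and log2 fold changes between -2.23 and -1.66. With the block it was called on all 3 days, with adjusted p of 0.0136, 0.00568 and 0.000722. BAMBI also stands in the list of BMP target genes, where it was 1 of 9 tested to be called. The block called ID2 of that list as well at D10 (4.99% of all genes), lower, named after its values were seen.

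The receptors and the enzymes that modify SMADs gave no calls at D10 by edgeR without the block. Of 10 receptors 0 were called, and the gene with the largest difference was ACVRL1 (ALK1), a type I receptor that phosphorylates SMAD1 and SMAD5. It had a log2 fold change of 1.54 at D10 (adjusted p = 0.325, edgeR). With the block it was called at D7 (adjusted p = 0.0383, edgeR) and D10 (adjusted p = 0.0311, edgeR). Its CPM at D0 and D10 was 15.2 and 51.3 in experiment 1 and 8.88 and 18.4 in experiment 2. Within experiments these are log2 ratios of 1.76 and 1.05. Of 15 ubiquitin ligases, phosphatases and deubiquitinases 0 were called by edgeR with or without the block, and SMURF1, a ligase for BMP-type SMADs, had the largest difference at 0.48 (adjusted p = 0.652). Of 14 further corepressors and cofactors tested 0 were called in either fit, and SIN3A was at 0.40 (adjusted p = 0.906). At an unadjusted p under 0.05 these 3 lists gave 1, 0 and 0 genes at D10 (7.94% of all genes).

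Of 18 TGF-β target genes 1 was called at D10, ACTA2, which encodes α-smooth muscle actin. Its CPM was 1347, 712, 491 and 225 in experiment 1 and 1164, 516, 319 and 145 in experiment 2, lower at each step in both. It fell by 2.76 on the log2 scale at D10 (adjusted p = 0.0399, edgeR). That call held without D10 replicate 1 (adjusted p = 0.0287) and was lost without each of the other 7 libraries, with adjusted p from 0.0540 to 0.215 and log2 fold changes from -2.87 to -2.48. With the block ACTA2 was already called at D7 (adjusted p = 0.00702, edgeR), where 1.25% of all genes were. At D10 the block called 2 genes of the list (4.99% of all genes), ACTA2 and TAGLN, both lower. TAGLN, a smooth muscle actin-binding protein, is named after its values were seen. The median of the list was 0.06 over all 8 libraries, so ACTA2 stood apart from most of its list in that fit. The list median without D10 of experiment 2, the library with the low fibroblast marker sum, was not worked out.

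**Figure D5:**
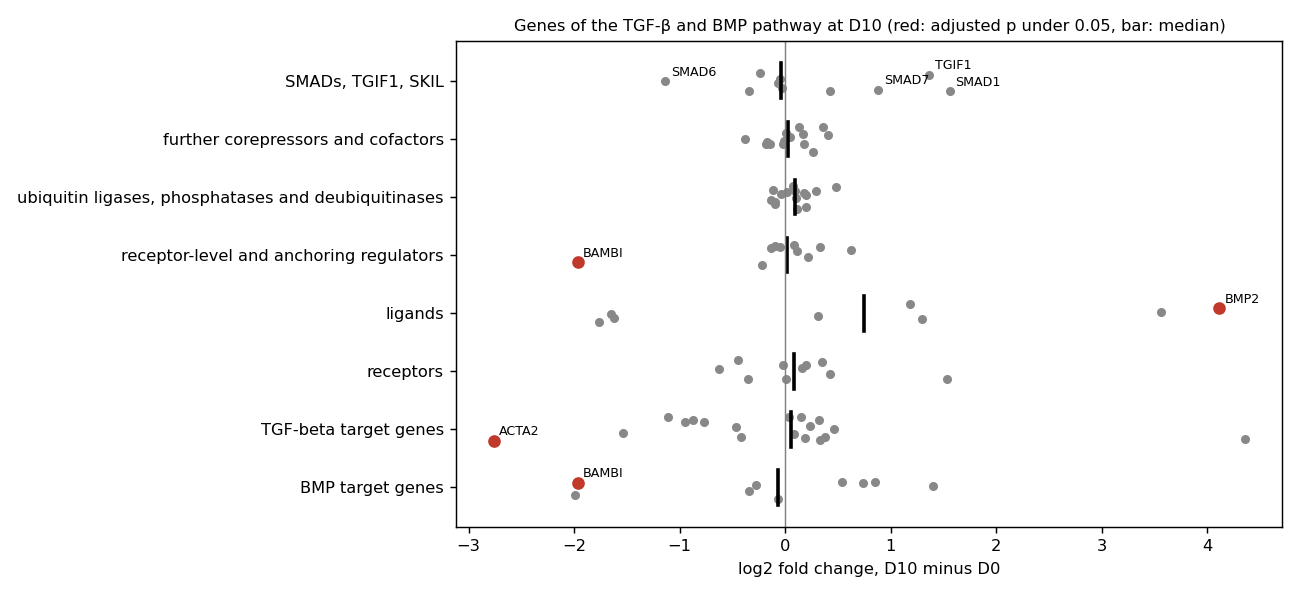
Log2 fold change at D10 (horizontal axis) of the genes in each list, with 1 point per gene, red where the adjusted p was under 0.05 and a bar at the list's median. SMAD1 and TGIF1 lie at 1.56 and 1.37 among the 10 members, and BAMBI, BMP2 and ACTA2 are the called genes of the other lists.

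The genes most like SMAD1 in pattern, by Pearson correlation over the 8 libraries of log2 CPM with each experiment's mean taken out, were ELK4 (r = 0.985), SLC25A37 (0.981), RTTN (0.981), ZNF791 (0.975) and MCL1 (0.971). Their log2 fold changes at D10 ran from 0.43 to 1.34. Of 9057 genes with a mean of at least 10 CPM, 169 had r above 0.9 with SMAD1. Those most like TGIF1 were SLC26A6 (0.996), GPCPD1 (0.993), P2RX4 (0.989), KCTD13 (0.987) and WTAP (0.987), with 252 genes above 0.9. The 8 points share their libraries between the genes compared, and for TGIF1 D10 of experiment 2 is far from the rest.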

How the data were processed

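Recipient IMR90 fibroblasts were grouped by the day of the conditioned medium (D0, D4, D7, D10). The labels give replicate numbers 1 and 2 and do not name experiments. The paper states that the RNA came from 2 independent experiments. Libraries with the same replicate number were assumed to come from the same experiment. Values deposited by the authors are raw counts per gene, and beside them RPM values per the file headers, which were not used for any result. One count column is headed DO and was taken as D0 replicate 1. The submitters' processing notes name STAR 2.5, DESeq2, GRCh38 and hg38. The counting tool, annotation and strand setting are not given in the sources used here. The labels give 3 days of incubation.

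Counts were filtered with filterByExpr, scaled by TMM and fitted with edgeR 4.0.16 (glmQLFit and glmQLFTest, R 4.3.3) over all 8 libraries by group. Benjamini-Hochberg adjustment ran over 13798 genes, with a threshold of 0.05, and intervals use the fit's degrees of freedom. The experiments pair the libraries, since same-numbered libraries deviated from their group means together (in the 6 group pairs r ranged from 0.418 to 0.722, taken across genes, which do not count as replicates). The common dispersion was 0.0792 without and 0.0242 with this block. Alternatives were DESeq2 1.42.0 with and without the block, DESeq2 size factors and upper-quartile scaling in edgeR, no filter, a minimum of 10 counts per library, only the 2 groups of a comparison, each experiment alone, each library left out, and other gene lengths. Scripts were tested on simulated data. Differences in response between the experiments were not tested.

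Gene identifiers matched GENCODE 29 on GRCh38 for 99.6% of genes, which gave positions, lengths, overlaps and shared 50-base words. Upstream windows came from RefSeq (GRCh38.p14), which held all 10 members. An NF-κB motif was also searched at first, had no match in the printed windows and was left out. Patterns were compared on log2 of CPM plus 0.15. Named genes were the 10 members, from each pathway list every gene past the threshold on a day or else the one with the largest absolute log2 fold change at D10, and the 5 genes most like SMAD1 and like TGIF1. The members and lists were chosen with earlier results of these data known. Figures were drawn with matplotlib 3.10.9.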

Additional observations from a re-analysis of the deposited data

How the results depend on the processing

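With 2 libraries per group the number of members called was sensitive to how the spread between libraries was modelled. Against 0 members without a block, the replicate block in edgeR gave 1 at D7 (1.25% of all genes), 2 at D10 (4.99%) and 1 for any difference among the groups (3.33%). DESeq2 with the block gave 1 (2.37% of the genes it tested), 2 (6.66%) and 2 (7.09%). DESeq2 without a block gave 1 at D10 (2.17%) and 2 for any difference (2.09%), and edgeR without the filter on low counts gave 2 and 2. For the fits without the filter or without 1 library, the share over all genes was not worked out. Leaving out 1 library gave 0 to 1 member at D10, with TGIF1 called without D10 replicate 1. Of 480 recomputed fits of the 30 member fold changes, 10 moved a member past the threshold, SMAD1 or TGIF1 in each case. A sign differed in 37 fits, 30 of them without 1 library, and 0 of these values were called. With the block the log2 fold change of SMAD5 was -0.029 at D4 and 0.027 at D10 in edgeR and -0.016 and 0.034 in DESeq2, and that of SKIL at D4 was -0.017 and -0.0026. Upper-quartile scaling gave -0.00063 for SMAD4 at D7. Without 1 library, log2 fold changes that turned ran, for SKIL, from -1.001 to 0.81 (D4), -0.57 to 1.095 (D7) and -0.19 to 1.18 (D10). For SMAD5 they ran from -0.73 to 0.52 (D4), -0.17 to 0.49 (D7) and -0.32 to 0.33 (D10), and for SMAD4 from -0.088 to 0.29 (D4), -0.19 to 0.22 (D7) and -0.25 to 0.12 (D10). SMAD3 ran from -0.22 to 0.23 (D4) and -1.35 to 0.25 (D10), SMAD7 from -0.058 to 0.23 (D4) and -0.0074 to 1.04 (D7), TGIF1 from -0.20 to 0.031 (D4) and -0.061 to 0.28 (D7), SMAD2 from -0.18 to 0.086 (D10) and SMAD9 from -0.79 to 0.18 (D10). Scaling by DESeq2 size factors or upper quartile, at least 10 counts in every library, and the compared groups only gave 0 members in each comparison. The block changed no call of another member. Leaving out 1 library moved the median log2 fold change at D10 of the BMP-type SMADs between -0.32 and 0.33, of the TGF-β-type SMADs between -0.63 and 0.035 and of the inhibitory SMADs between -0.40 and 0.057. The corepressor median ran from 0.17 to 1.39. For this median and for the pathway lists, alternatives were chosen after seeing the data. Against 3 listed genes called at D10, DESeq2 called 9, DESeq2 with the block 10, edgeR with the block 8, edgeR without the filter 11 and the fit of the compared groups alone 0, and leaving out 1 library gave 0 to 8. Of all genes tested, edgeR called 0.290% at D10 and 4.99% with the block, and DESeq2 called 2.17% and 6.66% with the block. Fold changes whose intervals span 0 were not resolved at this depth and number of libraries. The cause of these differences was not tested.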
